A study of Mus musculus with 12 samples.

Results

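The genes described here are the 10 that encode the main enzymes of fatty acid and triglyceride synthesis in mouse skin together with their transcription factor: Acly, Me1, Acaca, Acacb, Fasn, Elovl5, Elovl6, Dgat1, Dgat2 and Srebf1. They were taken by name as 10 of the 23359 genes in the deposited expression table, with earlier results of these data known. Whole skin of C3H/HeJ mice was profiled in 12 libraries, 3 for each of 4 groups. The treated group is labelled CD36highCD90+ Treated, was sampled at 20 weeks, and belongs to a design that set murine skin fibrosis with transplanted CD36highCD90+ fibroblasts against fibrosis without them. The other groups were fibrotic skin without the transplant at 20 weeks, the same at 6 weeks, and normal skin, for which no time is given. The labels do not state how fibrosis was induced, the age or sex of the mice, how many cells were transplanted, or whether each library is 1 animal. A p-value here therefore weighs a difference against the spread of these libraries, which may be technical. The series title names fatty acid oxidation and glycolysis in fibroblasts as its subject, and these genes belong to the opposite, anabolic side of fatty acid metabolism.

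Fatty acids are built in the cytosol from acetyl-CoA, which ATP citrate lyase (Acly) makes from citrate. Acetyl-CoA carboxylases turn it into malonyl-CoA, fatty acid synthase (Fasn) condenses malonyl units into palmitate with NADPH that malic enzyme (Me1) helps to supply, elongases lengthen the chain, and diacylglycerol acyltransferases close the pathway by adding the last acyl chain of triglyceride. The transcription factor gene Srebf1 encodes SREBP-1, which binds sterol regulatory elements in the promoters of many of these genes. In skin the pathway is known from sebaceous glands, which fill with lipid and release it as sebum, from the dermal fat layer, and from the epidermis, which secretes barrier lipids.

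In the reference annotation of the same mouse build (GRCm38, GENCODE vM21), the genes lie at chr11:100476353-100528000 (Acly, minus strand), chr9:86581371-86695953 (Me1, minus), chr11:84129672-84401651 (Acaca, plus), chr5:114146535-114250761 (Acacb, plus), chr11:120805846-120824547 (Fasn, minus), chr9:77917364-77984519 (Elovl5, plus), chr3:129532355-129638495 (Elovl6, plus), chr15:76502015-76511953 (Dgat1, minus), chr7:99153658-99182719 (Dgat2, minus) and chr11:60199089-60222581 (Srebf1, minus). All 10 are protein-coding genes. Srebf1 overlaps Rai1 and Acaca overlaps Gm11437, both annotated on the opposite strand, and Me1, Elovl6 and Acacb overlap antisense transcripts or a pseudogene. The kit keeps strand, but whether strand was used in counting is not given in the sources used here, so fragments of these genes and their partners may not have been told apart.

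Promoters are shown for 3 genes: Fasn, which had one of the widest ranges over the libraries, Elovl6, which was lower in fibrotic skin, and Elovl5, the elongase that served as its partner below. The sequences are from RefSeq (GRCm38.p6), run 5′ to 3′ along the gene's strand, and end just before the annotated gene start. Capitals mark matches, on either strand, to the 4 motifs searched. Fasn is the stretch chr11:120824548-120824797 on the minus strand, Elovl6 is chr3:129532136-129532354 on the plus strand, and Elovl5 is chr9:77917115-77917363 on the plus strand.
Fasn: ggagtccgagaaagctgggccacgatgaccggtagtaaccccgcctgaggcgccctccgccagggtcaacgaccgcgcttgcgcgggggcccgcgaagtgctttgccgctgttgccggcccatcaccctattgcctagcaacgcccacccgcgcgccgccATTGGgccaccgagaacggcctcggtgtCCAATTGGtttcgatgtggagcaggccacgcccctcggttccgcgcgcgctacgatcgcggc
Elovl6: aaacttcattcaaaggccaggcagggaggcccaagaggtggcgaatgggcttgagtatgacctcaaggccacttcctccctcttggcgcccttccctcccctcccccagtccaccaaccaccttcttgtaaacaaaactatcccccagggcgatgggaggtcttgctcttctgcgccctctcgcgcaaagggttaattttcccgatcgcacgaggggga
Elovl5: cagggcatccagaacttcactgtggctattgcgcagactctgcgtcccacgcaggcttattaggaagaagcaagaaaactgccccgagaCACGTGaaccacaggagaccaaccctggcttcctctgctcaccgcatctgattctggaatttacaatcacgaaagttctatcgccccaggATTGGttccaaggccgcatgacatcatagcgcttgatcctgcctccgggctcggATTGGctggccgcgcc

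The motifs were a sterol regulatory element (TCACNCCAC), an E-box (CACGTG), an NF-Y box (CCAAT) and a DR4 nuclear receptor site (AGGTCA repeated after 4 bases of any kind), each sought on both strands in windows from 250 bases before to 50 bases after a start site. Over all 32851 mouse promoter windows of that length, 1.24% held the sterol regulatory element, 7.15% the E-box, 37.4% the NF-Y box and 0.0152% the DR4 site. The Fasn window held 3 NF-Y boxes, at -62 to -58 on the gene's strand and at -90 to -86 and -59 to -55 on the other strand, and those nearest the start overlap each other. Elovl5 held 2 NF-Y boxes on the other strand, at -71 to -67 and -17 to -13, and the only E-box of the members' windows, at -161 to -156. The Elovl6 window held none of the 4 motifs. Among the others with a window, Acacb, Acly, Me1 and Srebf1 held an NF-Y box in at least 1 window, Acaca held none of the motifs, and no member window held the sterol regulatory element or the DR4 site in these exact letters. Dgat1 and Dgat2 are named only. These matches describe letters in a window and say nothing on which factor binds there.

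Treated replicate 1 stood apart from the other treated libraries. Over the 13761 genes tested, its Spearman correlation was 0.916 with treated replicate 2 and 0.879 with treated replicate 3, against 0.927 to 0.959 with the 3 fibrotic libraries of 20 weeks. Treated replicate 1 was the lowest treated library for 8 of the 10 genes, against 42.7% of all tested genes, and treated replicate 3 was the highest of all 12 libraries for 7 of 10, against 15.7% of all tested genes. Among the normal libraries, replicate 3 was the lowest for 10 of 10, against 33.4% of all tested genes. Counts and calls in the treated group are therefore given with and without treated replicate 1. Values are FPKM, fragments scaled by transcript length and by the mapped fragments of the library, so levels of different genes may be set side by side. Fold changes are differences of log2(FPKM + 1) with their standard error (SE), which understate the change of a low gene, and a gene is called changed where limma's adjusted p was under 0.05 over all 13761 genes.

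**Figure D1:**
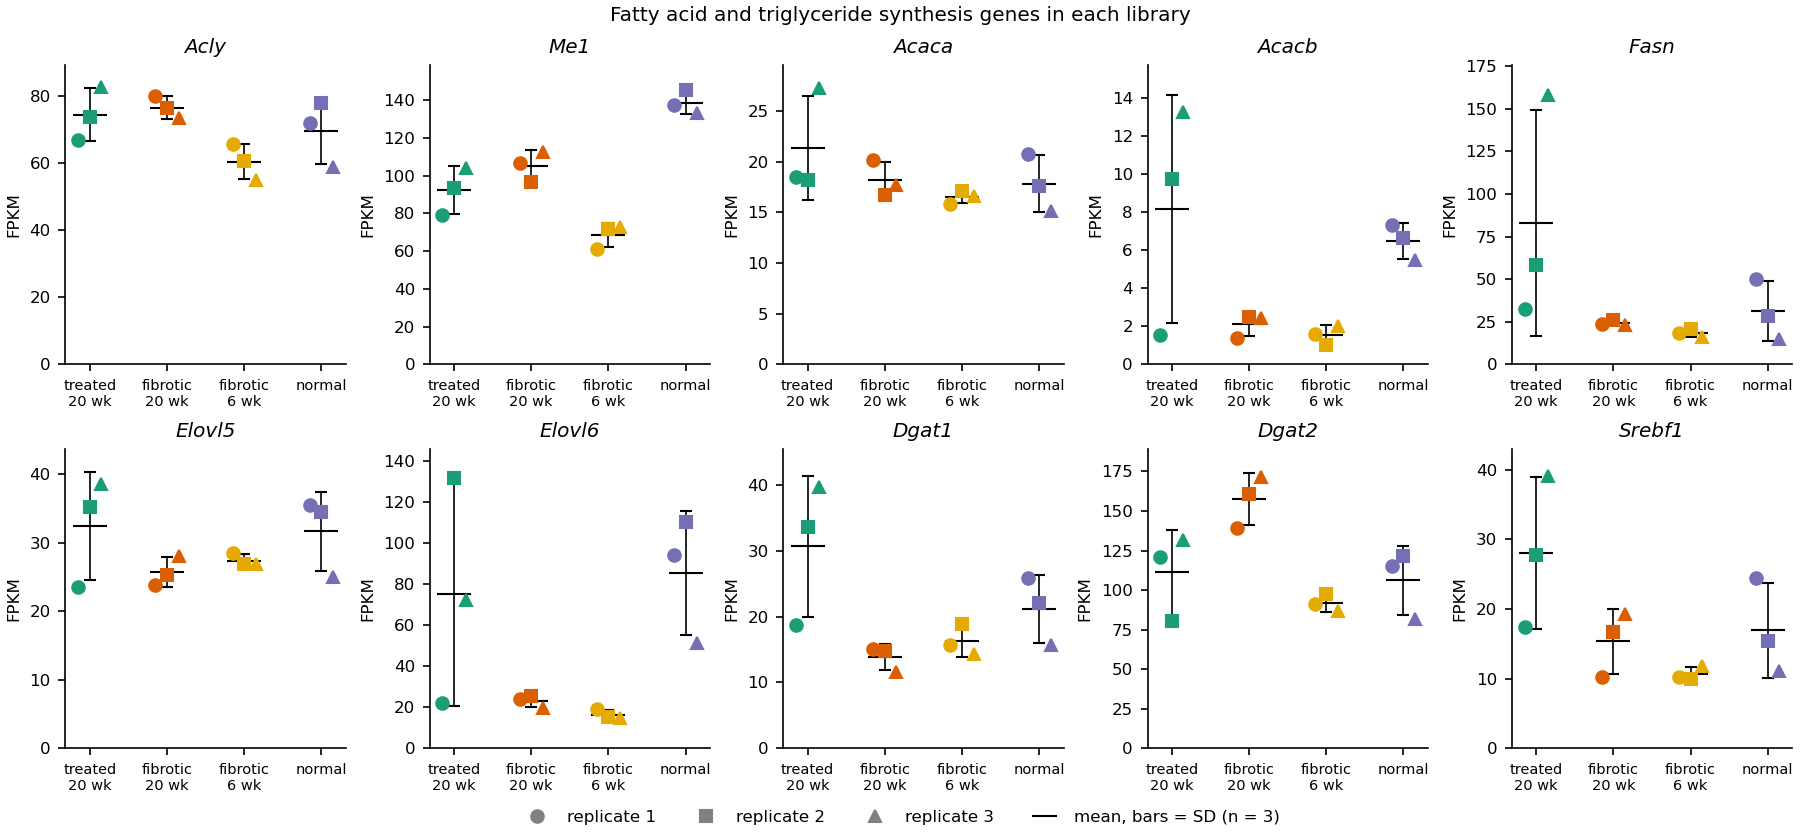
FPKM of the 10 genes in each of the 12 libraries, with points for the libraries (the shape gives the replicate) and a line and bars for the mean and SD of 3 libraries. The treated libraries spread widely for Fasn, Acacb and Elovl6, and treated replicate 1 lies among the fibrotic libraries for Acacb and Elovl6, while Me1 is highest in the 3 normal libraries and Dgat2 in the 3 fibrotic libraries of 20 weeks.

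Averaged over the 12 libraries, Dgat2 had the highest level (117 FPKM), followed by Me1 (101 FPKM), Acly (70.3 FPKM), Elovl6 (49.9 FPKM), Fasn (39.2 FPKM), Elovl5 (29.3 FPKM), Dgat1 (20.5 FPKM), Acaca (18.5 FPKM), Srebf1 (17.8 FPKM) and Acacb (4.58 FPKM). All 10 passed the filter on low values. The genes differed more in how far they ranged than this order shows: the highest library was 13.3 times the lowest for Acacb, 10.5 times for Fasn and 9.09 times for Elovl6, but 1.5 times for Acly, 1.64 times for Elovl5 and 1.8 times for Acaca. The SD among the treated libraries was the largest of the 4 groups for 9 of the 10 genes on the log2 scale, against 53% of all tested genes.

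In fibrotic skin some but not most of the 10 genes were called at either time. At 6 weeks 3 of the 10 genes were called lower than in normal skin (Me1, Elovl6 and Acacb) and 0 higher, where 21.7% of all tested genes were called lower and 39.3% in either direction. These 3 were also the ones whose groups did not overlap, against 58.1% of all tested genes. The log2 fold change was below 0 for all 10 genes at 6 weeks (-0.09 to -2.27) and above 0 for 3 of 10 at 20 weeks. At 20 weeks Me1 and Elovl6 were again called lower (18.2% of all tested genes were), and Dgat2 was called higher (15.3% of all tested genes were). In either direction 33.5% of all tested genes were called. The groups did not overlap for 5 of 10 (these 3, Acacb and Dgat1), against 54.6% of all tested genes. The median log2 fold change was -0.45 over the 10 genes against -0.05 over all tested genes at 6 weeks, and -0.24 against -0.04 at 20 weeks. Both comparisons use the same 3 normal libraries. Between the fibrotic groups themselves, 20 weeks against 6 weeks, limma called 0 of 10. An unadjusted limma p under 0.05 was found for 3 of 10, against 2737 of all 13761 tested genes. Over all tested genes 0.0363% were called there, 0.00727% higher. Array-weighted limma called 2 of 10, as given for Me1 and Dgat2 below, but also 6.24% of all tested genes. The 2 times did not overlap for 5 of 10 (Acly, Me1, Fasn, Elovl6 and Dgat2, all higher at 20 weeks), against 30.9% of all tested genes.

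In treated skin at 20 weeks 1 of the 10 genes was called against fibrotic skin of the same time, Dgat1, which was higher. Of all tested genes 4.45% were called higher and 15.3% in either direction. The groups did not overlap for Dgat1, Fasn and Dgat2, 3 of 10, against 32.2% of all tested genes. The log2 fold change was above 0 for 7 of the 10 genes and their median was 0.55, against -0.00 over all tested genes. Without treated replicate 1 the count was 6 of 10, all higher (Fasn 1.95, Acacb 2.01, Srebf1 1.09, Elovl5 0.51, Elovl6 2.05 and Dgat1 1.35 on the log2 scale). Of all tested genes 38.1% were then called in either direction, 2446 higher and 2780 lower. Without treated replicate 2 the count of members called was 0 of 10 (3.93% of all tested genes), and without treated replicate 3 also 0 (2.31%). Without fibrotic replicate 3 of 20 weeks it was 0 of 10, and 0.0219% of all tested genes. Against normal skin, treated skin had 1 call, Me1, which was lower, where 13.2% of all tested genes were called lower, 7.57% higher and 20.7% in either direction. It was also the only one of 10 without overlap, against 37.5% of all tested genes. Without treated replicate 1 there were 3 higher (Fasn, Acacb and Dgat1) and 1 lower (Me1), where 22.6% of all tested genes were called, 1178 higher and 1923 lower. The comparison of treated with fibrotic skin shares the fibrotic libraries with that of fibrotic with normal skin.

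**Figure D2:**
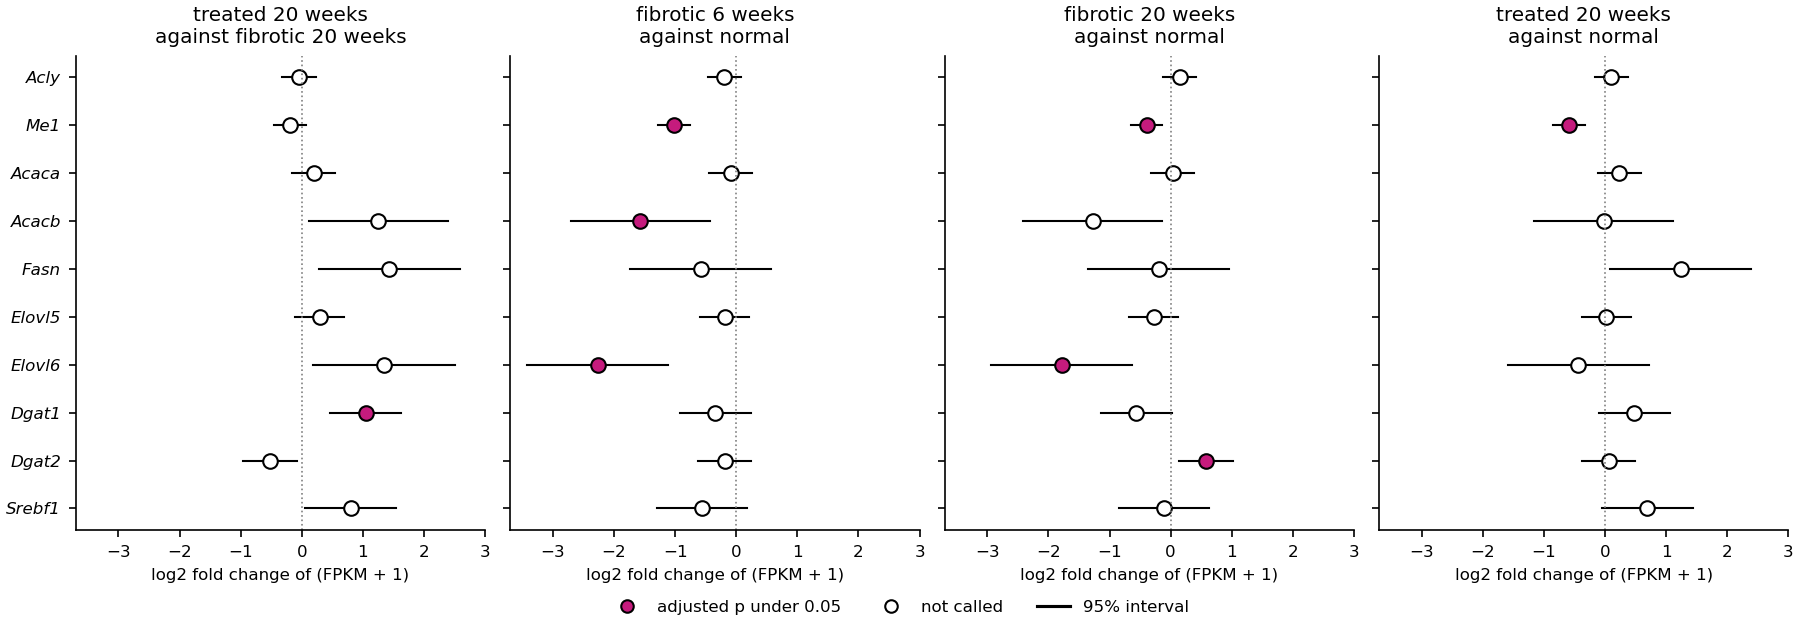
Log2 fold changes of FPKM + 1 for the 10 genes in 4 comparisons, with 95% intervals from limma. Filled points passed an adjusted p of 0.05, which Me1 did in 3 of the panels, Elovl6 in both panels of fibrotic against normal skin, Acacb at 6 weeks, Dgat2 at 20 weeks and Dgat1 in treated against fibrotic skin.

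Acly and Me1 supply the carbon and part of the reducing power. Acly had 67.0, 73.8 and 82.8 FPKM in treated skin, 80.1, 76.4 and 73.4 FPKM in fibrotic skin at 20 weeks, 65.7, 60.6 and 55.1 FPKM in fibrotic skin at 6 weeks and 72.0, 78.0 and 58.8 FPKM in normal skin. The treated libraries and the 20-week fibrotic libraries all lay above the 6-week ones, the other pairs of groups overlapped, and none of the 5 comparisons was called (adjusted p between 0.176 and 0.828). The interval of treated minus fibrotic skin was -0.32 to 0.23 on the log2 scale. At 6 weeks the Acly fold change of -0.19 against normal skin became a call (-0.51, adjusted p = 0.022; 0.022 to 0.555 over its alternatives) when libraries were rescaled to equal totals without muscle, hair shaft and keratinocyte genes, a step that moved the median of all genes to -0.33. Relative to that median Acly stood at -0.18.

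Me1 showed the most regular pattern of the 10. It had 79.4, 93.6 and 104 FPKM in treated skin, 107, 96.5 and 113 FPKM in fibrotic skin at 20 weeks, 61.1, 71.6 and 72.6 FPKM in fibrotic skin at 6 weeks and 137, 145 and 133 FPKM in normal skin. No library of the other groups reached the normal range, and the 6-week libraries were the lowest of all. Me1 fell by 1.01 ± 0.12 on the log2 scale at 6 weeks (SE; adjusted p = 0.000329) and by 0.40 ± 0.12 at 20 weeks (adjusted p = 0.0268), and was 0.59 ± 0.12 lower in treated than in normal skin on that scale (log2 fold change -0.59, adjusted p = 0.00988). The call at 6 weeks held in all 20 alternatives. That at 20 weeks was lost, with adjusted p up to 0.0926, without fibrotic replicate 1 or 2 of 20 weeks or any 1 of the normal libraries, and that in treated skin was lost when the 6 libraries were fitted alone (adjusted p = 0.0768; 0.00945 to 0.0768 over its alternatives). Fibrotic skin at 20 weeks stood 0.62 ± 0.12 above fibrotic skin at 6 weeks without overlap (adjusted p = 0.0783), which became a call with array weights per group (adjusted p = 0.0204), in the fit of those 6 libraries alone (adjusted p = 0.0339) and without treated replicate 1 (adjusted p = 0.0202), with a range of 0.0202 to 0.256 over its alternatives.

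The acetyl-CoA carboxylases make malonyl-CoA. Acaca encodes the cytosolic enzyme that feeds synthesis, and Acacb the mitochondrial form whose malonyl-CoA blocks entry of fatty acids into oxidation. Acaca had 18.5, 18.2 and 27.2 FPKM in treated skin, 20.2, 16.7 and 17.7 FPKM in fibrotic skin at 20 weeks, 15.9, 17.1 and 16.6 FPKM in fibrotic skin at 6 weeks and 20.7, 17.6 and 15.1 FPKM in normal skin. Every pair of neighbouring groups overlapped and none was called, and the interval for treated against fibrotic skin ran from -0.16 to 0.55 on the log2 scale.

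Acacb was low and variable. It had 1.56, 9.73 and 13.25 FPKM in treated skin, 1.40, 2.50 and 2.44 FPKM in fibrotic skin at 20 weeks, 1.61, 0.999 and 2.03 FPKM in fibrotic skin at 6 weeks and 7.32, 6.65 and 5.47 FPKM in normal skin. All 6 fibrotic libraries and treated replicate 1 lay below the normal libraries, and the other 2 treated libraries lay above them. Acacb fell by 1.57 ± 0.51 on the log2 scale at 6 weeks (adjusted p = 0.0344). This call was lost without any 1 of the 6 libraries compared (adjusted p between 0.0537 and 0.109) and without the filter (0.0733). It held in the fit of those 6 libraries alone (adjusted p = 0.0016), with array weights (0.00397) and without treated replicate 1 (0.000378). At 20 weeks the log2 fold change of Acacb was -1.28 ± 0.51 without overlap (adjusted p = 0.0789). This was called in the fit of the 6 libraries of that comparison alone (adjusted p = 0.00339), with a range of 0.00114 to 0.205 over its alternatives. In treated against fibrotic skin it was 1.25 ± 0.51 (adjusted p = 0.115), and 2.01 without treated replicate 1 (adjusted p = 0.000408; 0.000408 to 0.377 over its alternatives). Against normal skin the direction itself turned on that library, from a log2 fold change of -0.02 with it to 0.73 without it (adjusted p = 0.047; 0.047 to 1.0 over its alternatives).

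Fasn, the synthase, ranged most in treated skin. It had 32.2, 58.3 and 158 FPKM there, against 23.4, 25.9 and 23.4 FPKM in fibrotic skin at 20 weeks, 18.6, 20.7 and 15.9 FPKM in fibrotic skin at 6 weeks and 50.01, 28.3 and 15.1 FPKM in normal skin. Each treated library lay above each fibrotic library of both times, and the normal libraries reached across the fibrotic ones. The group mean was 83.0 ± 66.7 FPKM in treated and 24.2 ± 1.45 FPKM in fibrotic skin at 20 weeks (SD, n = 3 each). The log2 fold change of 1.43 ± 0.52 did not pass (adjusted p = 0.0848), and was called without treated replicate 1 (1.95, adjusted p = 0.0107) or after the rescaling without muscle, hair shaft and keratinocyte genes (1.72, adjusted p = 0.0496), with a range of 0.0107 to 0.269 over its alternatives. In fibrotic against normal skin Fasn was not called at either time (-0.58, adjusted p = 0.391 at 6 weeks, and -0.20, adjusted p = 0.797 at 20 weeks), with intervals from -1.74 to 0.57 and from -1.35 to 0.96 on the log2 scale.

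The elongases differed from each other. Elovl6 adds the last carbons that turn palmitate into stearate, and Elovl5 works on unsaturated chains. Elovl6 had 22.02, 132 and 72.3 FPKM in treated skin, 23.8, 25.6 and 19.6 FPKM in fibrotic skin at 20 weeks, 18.9, 15.1 and 14.5 FPKM in fibrotic skin at 6 weeks and 94.2, 110 and 51.4 FPKM in normal skin. Treated replicate 1 lay within the 20-week fibrotic range, treated replicate 3 lay within the normal range, treated replicate 2 was the highest of all 12 libraries, and every fibrotic library lay below every normal one.

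Elovl6 fell by 2.27 ± 0.52 on the log2 scale at 6 weeks (adjusted p = 0.00776) and by 1.78 ± 0.52 at 20 weeks (adjusted p = 0.0253). The call at 6 weeks held in all 20 alternatives. The call at 20 weeks was lost without any 1 of the fibrotic libraries of 20 weeks or without normal replicate 1 or 2 (adjusted p between 0.054 and 0.0769). Over all its alternatives the adjusted p ran from 0.00127 to 0.0769. In treated against fibrotic skin Elovl6 stood at 1.35 ± 0.52 (adjusted p = 0.0998), and at 2.05 without treated replicate 1 (adjusted p = 0.00161; 0.00161 to 0.293 over its alternatives).

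Elovl5 had 23.55, 35.3 and 38.55 FPKM in treated skin, 23.8, 25.3 and 28.04 FPKM in fibrotic skin at 20 weeks, 28.4, 26.8 and 26.8 FPKM in fibrotic skin at 6 weeks and 35.45, 34.5 and 25.0 FPKM in normal skin. Its neighbouring groups all overlapped and it was called in none of the 5 comparisons, with an interval of -0.59 to 0.21 on the log2 scale at 6 weeks and of -0.68 to 0.12 at 20 weeks against normal skin. Without treated replicate 1 it was called higher in treated than in fibrotic skin (0.51, adjusted p = 0.0205; 0.0205 to 0.638 over its alternatives).

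The diacylglycerol acyltransferases, unrelated enzymes that catalyse the same last step, had fold changes of opposite sign in treated against fibrotic skin. Dgat1 had 18.8, 33.6 and 39.6 FPKM in treated skin, 15.1, 14.7 and 11.5 FPKM in fibrotic skin at 20 weeks, 15.6, 18.9 and 14.2 FPKM in fibrotic skin at 6 weeks and 25.8, 22.05 and 15.6 FPKM in normal skin. All 3 treated libraries lay above all 3 fibrotic libraries of 20 weeks, and these lay below the normal ones. Dgat1 rose by 1.04 ± 0.26 on the log2 scale in treated against fibrotic skin (adjusted p = 0.029), with the SE shared by all groups. The SD of its log2 level was 0.54 in treated skin and 0.20 in fibrotic skin at 20 weeks. The call was lost without treated replicate 2 or 3 or any 1 of the fibrotic libraries of 20 weeks (adjusted p between 0.0588 and 0.106) and in the fit of the 6 libraries alone (adjusted p = 0.132). In fibrotic against normal skin at 20 weeks Dgat1 stood at -0.57 ± 0.26 (adjusted p = 0.119), which was called without treated replicate 1 (adjusted p = 0.0335; 0.0335 to 0.319 over its alternatives).

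Dgat2 had 121, 80.7 and 132 FPKM in treated skin, 139, 161 and 172 FPKM in fibrotic skin at 20 weeks, 90.9, 97.3 and 86.6 FPKM in fibrotic skin at 6 weeks and 115, 122 and 81.4 FPKM in normal skin. The 20-week fibrotic libraries lay above every other library. Dgat2 rose by 0.58 ± 0.20 on the log2 scale in fibrotic against normal skin at 20 weeks (adjusted p = 0.0454), but this was lost without any 1 of the 6 fibrotic libraries or normal replicate 1 or 3 (adjusted p between 0.0592 and 0.153) and with a replicate block (adjusted p = 0.0771). It was also lost after the rescaling, where the fold change was 0.27 (adjusted p = 0.313) and stood 0.58 above the median of all genes. In treated against fibrotic skin Dgat2 stood at -0.52 ± 0.20 without overlap (adjusted p = 0.0942), and at -0.60 without treated replicate 1 (adjusted p = 0.0576; 0.0576 to 0.413 over its alternatives). Fibrotic skin at 20 weeks stood 0.77 ± 0.20 above fibrotic skin at 6 weeks (adjusted p = 0.103), and this was called with array weights per group (adjusted p = 0.0281) and in the fit of those 6 libraries alone (adjusted p = 0.02; 0.02 to 0.323 over its alternatives).

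Srebf1, the regulator, had 17.4, 27.7 and 39.1 FPKM in treated skin, 10.2, 16.6 and 19.3 FPKM in fibrotic skin at 20 weeks, 10.2, 9.90 and 11.8 FPKM in fibrotic skin at 6 weeks and 24.4, 15.4 and 11.1 FPKM in normal skin. All neighbouring groups overlapped. It was called in none of the 5 comparisons. Treated against fibrotic skin gave 0.80 ± 0.33 on the log2 scale (adjusted p = 0.12), and 1.09 without treated replicate 1 (adjusted p = 0.0247; 0.0247 to 0.379 over its alternatives). Against normal skin it stood at -0.56 ± 0.33 at 6 weeks (adjusted p = 0.201) and -0.11 ± 0.33 at 20 weeks (adjusted p = 0.826).

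Pairs of related enzymes were also compared as ratios within each library. The Acaca to Acacb ratio of FPKM was 11.8, 1.87 and 2.06 in treated skin, 14.4, 6.68 and 7.25 in fibrotic skin at 20 weeks, 9.87, 17.2 and 8.18 in fibrotic skin at 6 weeks and 2.83, 2.65 and 2.76 in normal skin. All 6 fibrotic libraries and treated replicate 1 lay above the normal ones, while treated replicates 2 and 3 lay below them. Over the 9 libraries with fibrosis, treated or not, the mean log2 ratio of FPKM + 1 exceeded that of the 3 normal libraries by 1.01 (two-sided exact permutation p = 0.0909; 0.136 adjusted over the 3 ratios). Without the treated libraries the difference was 1.39 (exact permutation test, adjusted p = 0.0179; every fibrotic library lay above the normal ones).

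The Elovl6 to Elovl5 ratio was 0.935, 3.73 and 1.88 in treated skin, 0.998, 1.01 and 0.699 in fibrotic skin at 20 weeks, 0.666, 0.564 and 0.539 in fibrotic skin at 6 weeks and 2.66, 3.2 and 2.06 in normal skin. The difference of the mean log2 ratios was -1.35 over the 9 fibrotic libraries against the normal ones (two-sided exact permutation p = 0.0364, adjusted 0.109) and -1.79 without the treated ones (exact permutation test, adjusted p = 0.0179). The smallest p that 9 against 3 libraries can give is 0.00455. Without the treated libraries the unadjusted exact permutation p was 0.0119 for this ratio and for Acaca to Acacb. That is the smallest p that 6 against 3 libraries can give. The Dgat1 to Dgat2 ratio was 0.155, 0.416 and 0.301 in treated skin, 0.108, 0.0917 and 0.067 in fibrotic skin at 20 weeks, 0.172, 0.194 and 0.164 in fibrotic skin at 6 weeks and 0.224, 0.181 and 0.192 in normal skin, with a difference of -0.29 over the 9 libraries against the normal ones (exact permutation p = 0.55, adjusted 0.55) and of -0.65 without the treated ones (exact permutation test, adjusted p = 0.119). The 3 fibrotic libraries of 20 weeks held the lowest values of this ratio, and treated replicates 2 and 3 the highest.

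**Figure D3:**
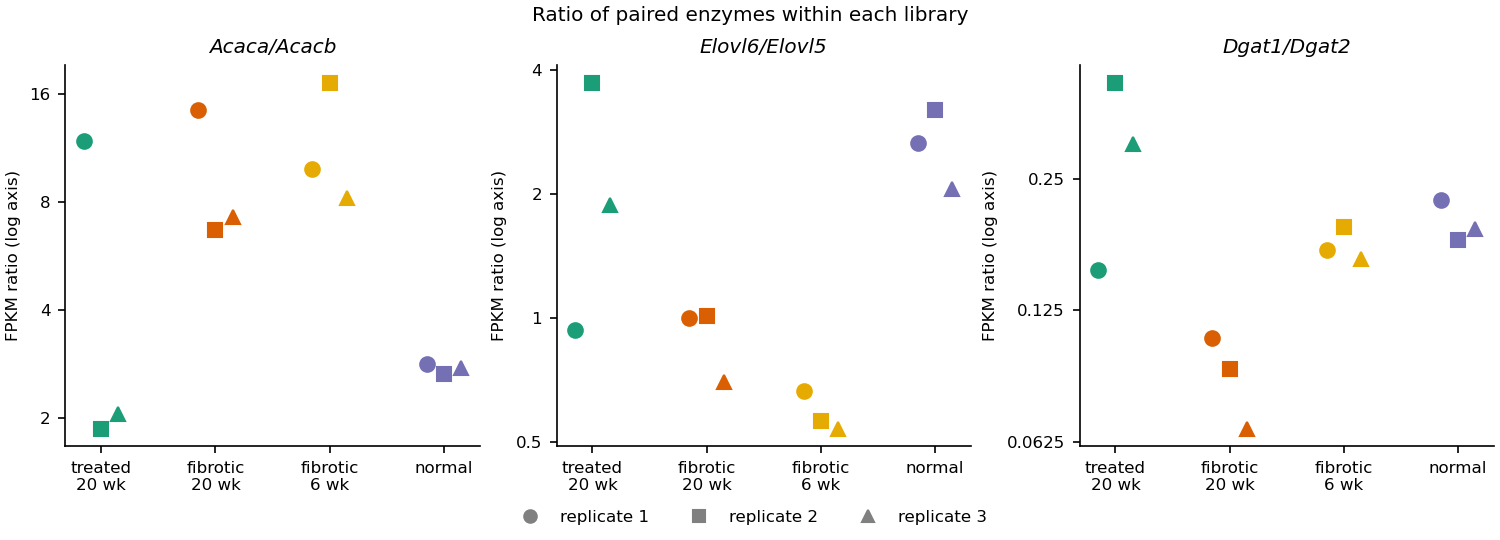
FPKM ratios of Acaca to Acacb, Elovl6 to Elovl5 and Dgat1 to Dgat2 in each library, on log axes, with 3 libraries in each of the 4 groups. For the first pair treated replicate 1 (11.8) lies among the fibrotic libraries (6.68 to 17.2) and the other treated libraries (1.87 and 2.06) lie below the normal ones (2.65 to 2.83).

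Whole skin holds several cell types that make lipid, and in such bulk samples fewer cells of a type and less RNA per cell cannot be told apart. Markers of sebaceous gland cells moved with several of these genes. Of 9 sebaceous markers, 8 were called lower in fibrotic than in normal skin at 6 weeks (21.7% of all tested genes) and 6 at 20 weeks (18.2%). In treated against fibrotic skin 5 of these markers were called higher (4.45% of all tested genes). Their summed level was 190.7 to 700.8 FPKM in treated skin, 118.9 to 179.2 FPKM in fibrotic skin at 20 weeks, 163.0 to 197.3 FPKM in fibrotic skin at 6 weeks and 341.1 to 697.1 FPKM in normal skin. None of the 9 was listed at 0 in any library, and the sebaceous receptor gene Mc5r had 1.40, 8.22 and 9.16 FPKM in treated skin, 0.187 to 0.868 FPKM in the 6 fibrotic libraries and 3.77 to 11.95 FPKM in normal skin. The 5 libraries with the highest mean log2 level of these markers, treated replicates 2 and 3 and the 3 normal libraries, were also the 5 with the highest Elovl6. Of the highest 3 by each, 2 were shared. Me1 shared 1 of its highest 3 and 3 of its highest 5 libraries with these markers.

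Adipocyte markers were called less often in these comparisons. Of 9, 0 were called in fibrotic against normal skin at 6 weeks (39.3% of all tested genes) or at 20 weeks (33.5%). The median log2 fold change of these 9 was still below 0, -1.0756 at 6 weeks and -1.0005 at 20 weeks. For the sebaceous markers it was -2.0008 and -1.7366. The groups did not overlap for 6 of 9 adipocyte markers at each time, against 9 of 9 sebaceous ones. Over all tested genes 58.1% did not overlap at 6 weeks and 54.6% at 20 weeks. Single adipocyte markers ran from -1.5592 to 1.3506 at 6 weeks and from -1.5165 to 0.1923 at 20 weeks. Of the 9 adipocyte markers, 2 were called higher in treated than in fibrotic skin (4.45% of all tested genes). Without treated replicate 1 it was 8 of these markers (2446 of 13724 tested genes). Their summed level was 1182 to 6094 FPKM in treated skin, 1340 to 2150 FPKM in fibrotic skin at 20 weeks, 2140 to 5359 FPKM in fibrotic skin at 6 weeks and 1624 to 2920 FPKM in normal skin, with none listed at 0. Their mean log2 level was 5.46 to 8.02 in treated skin, 4.67 to 5.46 in fibrotic skin at 20 weeks, 4.81 to 5.58 in fibrotic skin at 6 weeks and 5.48 to 6.78 in normal skin, so the 6-week libraries ranged higher than the normal ones by the sum and lower by the mean log2. Adipoq, the adiponectin gene, had 50.2, 120 and 261 FPKM in treated skin, 27.2, 41.0 and 57.5 FPKM in fibrotic skin at 20 weeks, 53.3, 50.5 and 24.9 FPKM in fibrotic skin at 6 weeks and 165, 114 and 63.2 FPKM in normal skin. The 3 libraries with the highest mean log2 level of these markers were also the 3 with the highest Fasn and the highest Dgat1. Of the highest 5, 4 were shared for Fasn and 5 for Dgat1. Dgat2 shared 0 of its highest 3 and 2 of its highest 5 libraries with these markers.

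Taken as deviations from the group means, so that differences between groups play no part, log2 levels of Elovl6 went with the mean log2 level of the sebaceous markers (Pearson r = 0.946 over 12 libraries). Fasn went with that of the adipocyte markers (r = 0.914), as did Elovl5 (0.899), Srebf1 (0.853), Dgat1 (0.827) and Acacb (0.812). Values were lower for Acly (0.661), Acaca (0.635), Me1 (0.545) and Dgat2 (0.335). The lists were not distinct in this: with the sebaceous markers r was 0.822 for Dgat1, 0.773 for Acacb, 0.753 for Elovl5, 0.721 for Acly, 0.61 for Fasn, 0.454 for Srebf1, 0.341 for Me1, 0.295 for Acaca and -0.121 for Dgat2, and Elovl6 had 0.668 with the adipocyte markers. With the wound keratinocyte markers r was -0.959 for Acacb, -0.846 for Srebf1, -0.839 for Elovl5, -0.735 for Fasn, -0.733 for Me1, -0.622 for Elovl6, -0.605 for Dgat1, -0.502 for Acaca, -0.375 for Acly and -0.141 for Dgat2. These are descriptions with no p: the treated libraries deviate most and weigh most in them, and the 12 libraries share their groups. In fibrotic skin, 6 of 7 wound keratinocyte markers were called higher at each time, summing to 4207 to 13560 FPKM at 20 weeks and 7737 to 20620 FPKM at 6 weeks, against 421.3 to 611.4 FPKM in normal skin and 1219 to 9225 FPKM in treated skin. Of all tested genes 15.3% were called higher and 18.2% lower in fibrotic than in normal skin at 20 weeks, and 17.6% and 21.7% at 6 weeks. In treated against fibrotic skin 4.45% were called higher and 10.9% lower. Of the other marker lists, 11 hair shaft genes had 3 called higher and 0 lower in treated than in fibrotic skin. In fibrotic against normal skin 0 of these hair shaft genes were called at 20 weeks, and 10 were called higher at 6 weeks. Of 4 epidermis markers, 2 were called lower in treated than in fibrotic skin, and 3 and 4 were called higher in fibrotic than in normal skin at 20 and 6 weeks. Of 6 macrophage markers, 0 were called in treated against fibrotic skin, and 3 and 5 higher in fibrotic than in normal skin at those times. Of 6 fibroblast markers, 0 were called in treated against fibrotic skin, 2 higher and 2 lower in fibrotic than in normal skin at 20 weeks, and 3 higher at 6 weeks. Of 8 muscle genes, 0 were called in any comparison, where 0.0363% to 39.3% of all tested genes were called in either direction. The part of cell composition in the results on Elovl6, Acacb, Me1, Fasn and Dgat1 was not tested.

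**Figure D4:**
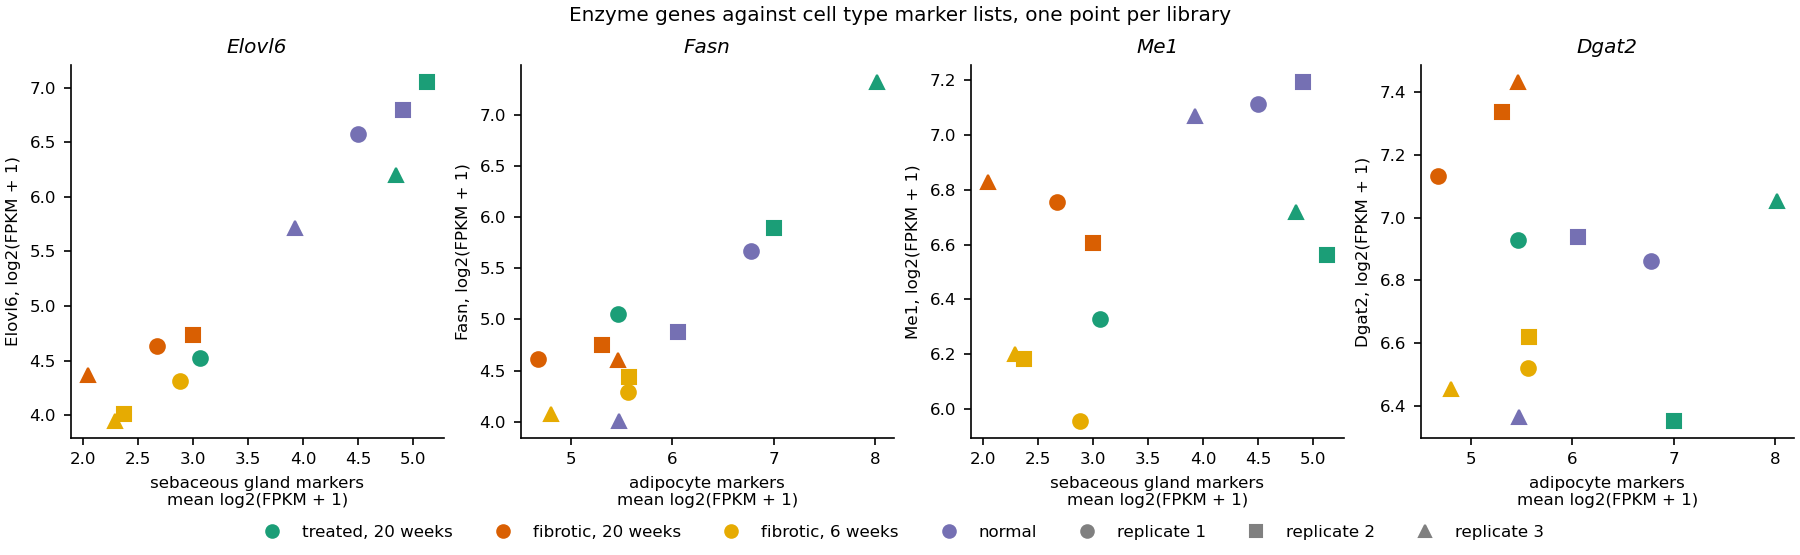
Levels of Elovl6, Fasn, Me1 and Dgat2 against the mean level of sebaceous gland or adipocyte markers, both as log2(FPKM + 1), with 1 point for each of the 12 libraries (colour gives the group, shape the replicate). Elovl6 follows the sebaceous markers across groups, and Fasn the adipocyte markers, while the normal libraries of Me1 and the 20-week fibrotic libraries of Dgat2 lie above libraries with similar marker levels.

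The rest of the pathway was read in 5 lists, whose members were chosen by function with earlier results of these data known. Of all tested genes 4.45% were called higher and 10.9% lower in treated than in fibrotic skin. In fibrotic against normal skin these shares were 15.3% and 18.2% at 20 weeks, and 17.6% and 21.7% at 6 weeks. Among 11 genes of precursor and NADPH supply, 1 was called higher and 1 lower in treated than in fibrotic skin, 2 and 3 in fibrotic against normal skin at 20 weeks, and 2 and 2 at 6 weeks. Those higher in fibrotic skin were G6pdx and Pgd, which make NADPH in the pentose phosphate pathway (log2 fold changes of 1.30 and 0.80 at 20 weeks, and 1.35 and 0.70 at 6 weeks). Those lower were genes of acyl-CoA synthetases, Acsl4 (-1.38 at 20 weeks and -1.65 at 6 weeks), Acsl5 (-0.99 and -1.06) and, at 20 weeks, Acsl3 (-0.77). G6pdx averaged 53.9 ± 10.7 FPKM in treated skin, 82.3 ± 3.44 FPKM in fibrotic skin at 20 weeks and 33.0 ± 4.59 FPKM in normal skin (SD, n = 3 each), and was called lower in treated than in fibrotic skin (-0.62, adjusted p = 0.0223). Slc25a1, the mitochondrial citrate carrier that feeds Acly, was called higher there (0.81, adjusted p = 0.0492). Me1 was lower than in normal skin in the groups where these other NADPH genes were higher.

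Among 15 genes of elongation and desaturation, 4 were called higher and 1 lower in treated than in fibrotic skin, 2 higher and 3 lower in fibrotic than in normal skin at 20 weeks, and 2 higher and 4 lower at 6 weeks. The stearoyl-CoA desaturase genes Scd1 and Scd3, which are known from sebaceous glands and adipose tissue, went the way of Elovl6. Scd3 averaged 57.4 ± 49.6 FPKM in treated skin, 1.11 ± 0.575 FPKM in fibrotic skin at 20 weeks, 1.87 ± 1.81 FPKM in fibrotic skin at 6 weeks and 68.3 ± 27.3 FPKM in normal skin (SD, n = 3 each), and was called higher in treated than in fibrotic skin (3.76, adjusted p = 0.0444) and lower in fibrotic than in normal skin (-4.99 and -4.67, adjusted p = 0.00786 at 20 weeks and 0.00856 at 6 weeks). Scd1 gave 1.98, -1.63 and -1.77 in the same order of comparisons, all called. Scd2 went the other way and was called higher in fibrotic than in normal skin, by 1.45 at 20 weeks and by 1.67 at 6 weeks. The Scd genes are close copies, so reads may have been split unevenly among them. The elongase gene Elovl7 averaged 29.6 ± 22.2 FPKM in treated skin, 89.7 ± 11.8 FPKM in fibrotic skin at 20 weeks, 71.1 ± 12.8 FPKM in fibrotic skin at 6 weeks and 11.7 ± 0.575 FPKM in normal skin, higher in fibrotic skin by 2.83 and 2.49 on the log2 scale and lower in treated than in fibrotic skin (-1.83, adjusted p = 0.0229). Elovl6 and Elovl7 were called in opposite directions in fibrotic skin. Elovl3, an elongase of sebaceous glands, and Fads1, a desaturase of polyunsaturated chains, were called higher in treated than in fibrotic skin (2.66 and 0.72).

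Of 13 genes of glycerolipid assembly, which act before the Dgat step, 1 was called higher and 2 lower in treated than in fibrotic skin, 1 and 0 in fibrotic against normal skin at 20 weeks, and 2 and 2 at 6 weeks. Agpat1 was the one higher in treated skin (0.73, adjusted p = 0.023), with Agpat4 (-1.05) and Agpat5 (-0.80) lower, all named for the acyltransferase step that follows glycerol-3-phosphate acylation. In fibrotic skin Lpin3, a lipin of the phosphatidate phosphatase family, was called higher at both times (1.0 at 20 weeks and 0.83 at 6 weeks) and Lpin2 at 6 weeks (0.72), while Gpam, the mitochondrial enzyme of the first acylation (-1.07), and Agpat4 (-0.58) were called lower at 6 weeks.

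Of 16 lipogenic regulators, 1 was called higher and 1 lower in treated than in fibrotic skin, 3 and 1 in fibrotic against normal skin at 20 weeks, and 1 and 3 at 6 weeks. Insig1, which holds SREBP precursors in the endoplasmic reticulum and is itself a SREBP target, was called higher in treated than in fibrotic skin (0.71, adjusted p = 0.0358), and Cebpa, an adipocyte and keratinocyte transcription factor gene, lower (-0.53). At 20 weeks Srebf2 (0.37), Scap (0.40) and Cebpa (0.42) were called higher than in normal skin and the SREBP protease gene Mbtps1 lower (-0.44). At 6 weeks Mlx (0.53) was called higher and Insig2 (-0.67), Mbtps1 (-0.53) and Usf2 (-0.29) lower.

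Of 8 genes of triglyceride breakdown and lipid droplets, 0 were called higher and 1 lower in treated than in fibrotic skin, 1 and 1 in fibrotic against normal skin at 20 weeks, and 1 and 2 at 6 weeks. Abhd5, the coactivator of the first triglyceride lipase, was the one lower in treated skin (-0.92, adjusted p = 0.0155) and the one higher in fibrotic than in normal skin (0.74 and, at 6 weeks, 0.47). Plin3, a droplet coat protein gene, was lower at both times (-0.45 and -0.62), and Mgll, which splits the last acyl chain off, at 6 weeks (-1.89).

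Between 20 and 6 weeks of fibrosis none of the 5 lists had a called gene, where 5 of 13761 genes were called in all and 2737 had an unadjusted p under 0.05. In treated against normal skin 7.57% of all tested genes were called higher and 13.2% lower. There the same lists had 3 higher and 2 lower of precursor supply, 1 and 1 of elongation and desaturation, 1 and 1 of glycerolipid assembly, 3 and 0 of regulators and 0 and 1 of breakdown. The higher ones included G6pdx (0.69), Pgd (0.65), Aacs (0.63), Scd2 (1.15), Agpat1 (0.58), Insig1 (0.69), Nr1h2 (0.63) and Usf1 (0.45), and the lower ones Acsl5 (-0.74), Acsl4 (-0.69), Elovl1 (-0.91), Agpat4 (-0.88) and Plin3 (-0.39).

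Without treated replicate 1, an alternative added after the data were seen, 38.1% of all tested genes were called in treated against fibrotic skin, 2446 higher and 2780 lower. The counts were then 5 higher and 1 lower of 11 in precursor supply, and 7 and 2 of 15 in elongation and desaturation. They were 6 and 2 of 13 in glycerolipid assembly, 6 and 2 of 16 regulators and 6 and 1 of 8 in breakdown and lipid droplets. Of the markers, 9 of 9 sebaceous and 8 of 9 adipocyte ones were called higher.

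**Figure D5:**
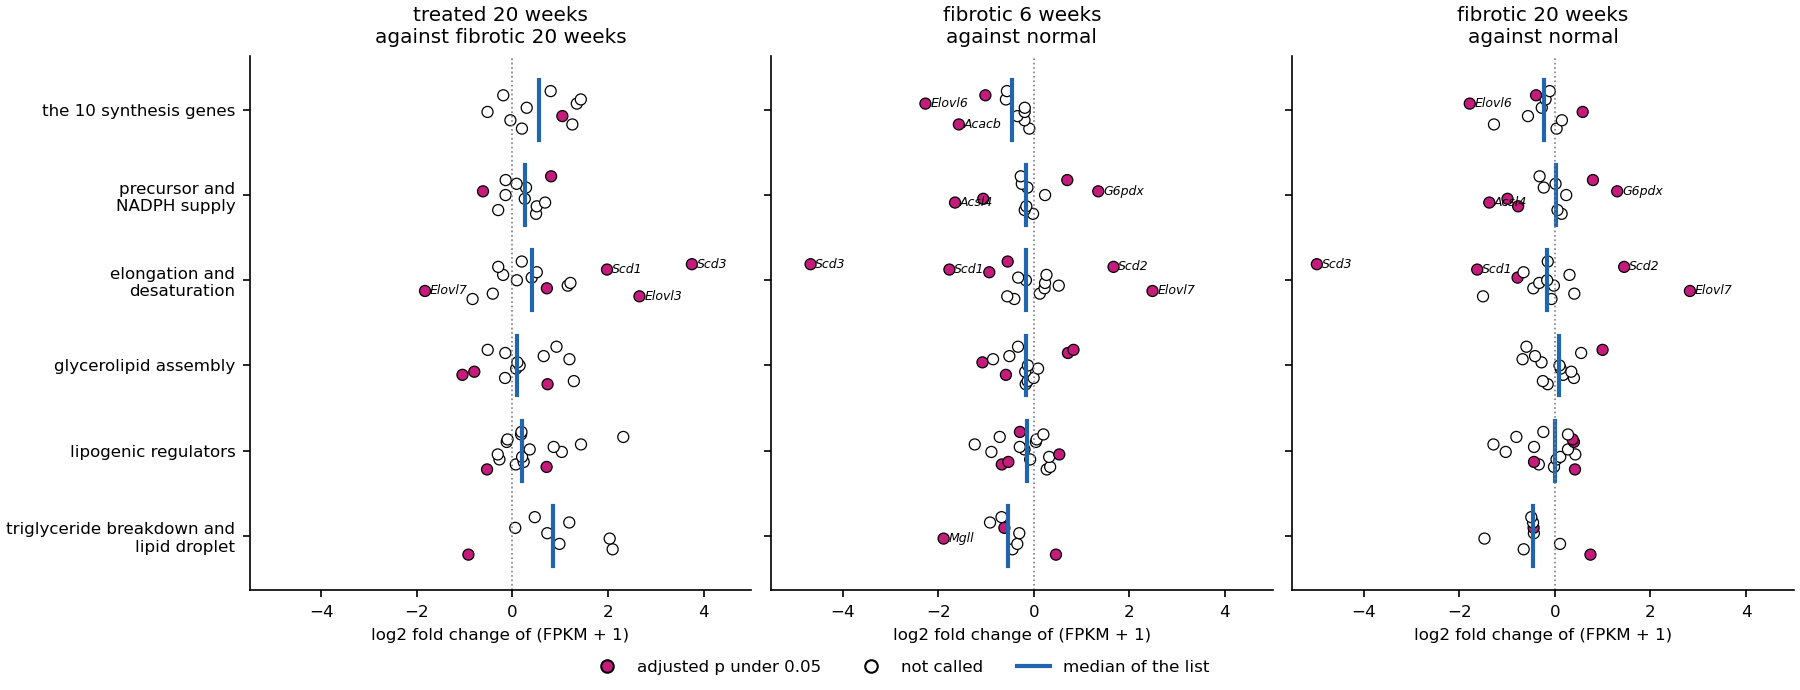
Log2 fold changes of the 10 genes and of the genes in 5 pathway lists in treated against fibrotic skin and in fibrotic against normal skin at 6 and 20 weeks. Filled points passed an adjusted p of 0.05, bars are list medians, and called genes with large fold changes are named, Scd3 having the widest range (3.76, -4.67 and -4.99).

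The genes whose log2 levels ran most like each member over the 12 libraries were picked from 9623 other genes with a mean of at least 5 FPKM, as a description with no p. For Fasn these were Lipe (r = 0.975), which encodes hormone-sensitive lipase, Plin1 (0.971), the droplet coat gene of adipocytes, and Tkt (0.964), the transketolase gene. For Elovl6 they were Gk5 (0.984), Ptplb (0.977), a dehydratase gene of the elongation cycle now named Hacd2, and Secisbp2l (0.977). For Dgat1 they were Slc25a1 (0.962), Snapc2 (0.953) and Cygb (0.949), and for Srebf1 Polr2e (0.984), Bckdha (0.981) and Grcc10 (0.977). For Acacb they were BC029722 (0.982), Aldh2 (0.98) and Crat (0.978), the carnitine acetyltransferase gene, and for Acaca Agpat9 (0.91), Mkl1 (0.905) and Strn4 (0.877). For Elovl5 they were Entpd6 (0.951), Aco1 (0.938) and Scarb1 (0.931), and for Acly Tenm4 (0.895), Lmf1 (0.872) and Arhgef7 (0.86). For Me1 they were Lnpep (0.962), Pik3r4 (0.961) and Arrb1 (0.958), whose r fell to between 0.6 and 0.706 for deviations from the group means, so that much of the likeness was in the order of the groups. For Dgat2 they were Cep170b (0.936), Atp2c2 (0.933) and Sort1 (0.924). No gene was among the first 3 of more than 1 member.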

How the data were processed

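RNA of dissected, frozen skin went into strand-keeping poly-A libraries that were sequenced from both ends, per the labels' protocols. The authors deposited 1 table of FPKM values for the 12 libraries, with no counts. Sequencing depth is therefore unknown, and no interval for counting error is given. The submitters' processing notes name mm10, R 3.1.1, Cufflinks 2.2.1, TopHat2 2.0.13 with Bowtie2 2.2.3, SAMtools 1.0, cutadapt 1.7.1 and FastQC 0.11.2. Not given in the sources used here are the annotation, the strand setting and the pool of each library. Steps between low values were too blurred to recover reads, and no 2 libraries were identical.

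Values were analysed as log2(FPKM + 1) with limma 3.58.1 (R 4.3.3), with an intensity trend, for the 13761 of 23359 genes that reached 1 FPKM in 3 or more libraries. One fit of 4 group means over all 12 libraries gave 5 two-sided comparisons, with Benjamini-Hochberg adjustment over all tested genes in each. The fit was run on simulated data that gave each gene the same spread in all 4 groups. Such data cannot show how the fit performs where the treated libraries spread more. The 3 ratios were compared by exact permutation of libraries, 9 against 3 (3 against 3 cannot go below 0.10), with the same adjustment over 3. Alternatives were no filter, a stricter one (mean of 5 FPKM), a pseudocount of 0.1, median-of-ratios scaling, totals made equal after leaving out muscle, hair shaft and keratinocyte genes, a fit of 6 libraries, a replicate block, array weights and each library left out.

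The genes named are the 10 members, up to 5 called genes of largest fold change per list and comparison, and the 3 genes most like each member. Members and lists were chosen with earlier results of these data known. Epidermis markers leave out Krt1 and Krt10, listed at 0 in some libraries. Replicate numbers come from the titles. Same-numbered libraries of fibrotic skin at 6 weeks and normal skin deviated together (r = 0.159, 0.227 and 0.108 across genes), those of the other comparisons did not in every pair, and the block left the 3 calls of the 6-week comparison in place. Sequences came from RefSeq tables, in which 8 of the 10 genes had a promoter window.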

Additional observations from a re-analysis of the deposited data

How the results depend on the processing

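Me1 and Elovl6 were called lower in fibrotic than in normal skin at 6 weeks in all 20 alternatives, and most other calls were not that stable. Shares of all tested genes called are given in brackets. In treated against fibrotic skin the count of 1 called gene became 0 without the filter (5.16%) and 0 in the fit of 6 libraries (0.0218%). It was 2 after rescaling (23.3%) and 0 to 6 with 1 library left out (0.0219% to 38.1%). In fibrotic against normal skin the 3 calls at 6 weeks became 2 without the filter (22.9%) and 4 after rescaling (50.7%). They were 2 to 3 with 1 library left out (25.5% to 47.7%). The 3 calls at 20 weeks became 1 without the filter (18.7%), 4 after rescaling (46.4%) and 5 with array weights (43.6%). They were 0 to 5 with 1 library left out (3026 to 5808 of all tested genes). In treated against normal skin 1 became 0 in the fit of 6 libraries (1.0%) and 1 to 4 with 1 library left out (6.23% to 22.6%). Between 20 and 6 weeks of fibrosis 0 became 2 in the fit of 6 libraries (3.47%) and 2 with array weights (6.24%). It was 0 to 1 there with 1 library left out (0.0292% to 4.01%). The cause of these changes was not tested. Without the filter Acacb at 6 weeks (adjusted p = 0.0733) and Elovl6 (0.0567) and Dgat2 (0.0805) at 20 weeks lost their calls, and Dgat1 lost its own (0.0633). One direction reversed with a call: Acacb in treated against normal skin had a log2 fold change of 0.73 without treated replicate 1, within -0.50 to 0.73 with 1 library left out. Values that were not called changed sign for Acly and Me1 in treated against fibrotic skin (0.25 and 0.10 after rescaling), for Acaca and Acly at 20 weeks (-0.26 and -0.17 after rescaling), for Acacb in treated against normal skin (0.04 with median-of-ratios scaling), and with 1 library left out for 1, 1, 3, 5 and 0 of the 10 genes in the order of comparisons above. Acacb was not tested under the filter at a mean of 5 FPKM.

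The difference of the Acaca to Acacb ratio was 1.39 without the treated libraries and 0.91 to 1.2 with 1 library left out, and that of the Elovl6 to Elovl5 ratio was -1.79 and -1.58 to -1.2. Each passed at an adjusted exact permutation p of 0.0455 or less without treated replicate 2 or 3. The Dgat1 to Dgat2 difference was -0.46 to -0.14 with 1 library left out.

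With the replicate block the members' counts were 1 in treated against fibrotic skin, 3 and 2 in fibrotic against normal skin at 6 and 20 weeks, 1 in treated against normal skin and 0 between 20 and 6 weeks. Of all tested genes 9.92%, 36.4%, 30.7%, 17.1% and 0.0363% were called, in that order. Only Dgat2 at 20 weeks lost its call (adjusted p = 0.0771). Correlations of same-numbered libraries in the 4 comparisons other than the 6-week one ran from -0.35 to 0.291, and of 6 libraries 2, 4, 0, 1 and 1 correlated best with their own number in the order of comparisons just given.

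Over all tested genes, calls in treated against fibrotic skin numbered 2108, and 1205 without the filter, 3227 after rescaling, 3 in the fit of 6 libraries, 1365 with the block and 1204 with array weights. In treated against normal skin they numbered 2855, 138 in the fit of 6 libraries and 1311 with array weights, and between 20 and 6 weeks 5, 478 in the fit of 6 libraries, 859 with array weights, 33 at the mean filter of 5 FPKM and 9 without a filter. With 1 library left out the counts ran from 3 (without fibrotic replicate 3 of 20 weeks) to 5226 (without treated replicate 1) in treated against fibrotic skin, from 3490 to 6544 around 5409 at 6 weeks, from 3026 to 5808 around 4605 at 20 weeks, from 851 (without normal replicate 3) to 3101 in treated against normal skin, and from 4 to 550 (without treated replicate 1) between 20 and 6 weeks. Rescaling moved the split of higher and lower calls from 612 and 1496 to 2524 and 703 in treated against fibrotic skin, from 2427 and 2982 to 1350 and 5664 at 6 weeks and from 2102 and 2503 to 1103 and 5322 at 20 weeks, with medians over all genes of 0.25, -0.33 and -0.31. Scaling by the median of ratios moved the split in treated against normal skin from 1042 and 1813 to 1263 and 1352. Depth per value is unknown, so low Acacb values carry an error that cannot be stated.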
